A study of Mus musculus with 6 samples.

Results

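Collagens are the most abundant proteins of the extracellular matrix, and their genes were taken here by symbol: every mouse gene named Col, a type number, the letter a and a chain number. Of 44 such genes in the RefSeq gene table, 42 had a probe set with a single gene symbol on the array, among 18193 genes measured this way, and Col28a1 and Col6a6 were not analysed here. Where several probe sets named a gene, the brightest on average across the 6 arrays stood for it, without regard to group. By class, 11 of the 42 encode chains of fibrillar collagens, 8 chains of basement membrane collagens and 23 chains of other types.

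The arrays hold hippocampal RNA of 3 wild type mice and 3 mice of line L26. All were adult males on a mixed C57B6xCBA background, the L26 animals homozygous for a daDREAM transgene and the controls their wild type littermates, and the labels name no treatment. daDREAM is a dominant active form of DREAM, a calcium-regulated transcriptional repressor encoded by Kcnip3, and the comparison asks how it alters basal expression. L26 is a single transgenic line, and the promoter that drives its transgene is not stated in the labels used here.

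Every collagen molecule is a trimer of chains built from Gly-X-Y repeats, wound into a triple helix in the endoplasmic reticulum, where prolines and lysines are hydroxylated before secretion. Fibrillar types (I, II, III, V, XI, XXIV and XXVII) assemble into fibrils, type IV forms the sheet of basement membranes, and the rest coat fibrils, form beaded filaments or finer networks, or sit in the plasma membrane. In the brain, fibrillar collagen is found mostly in the meninges and around larger vessels, and type IV collagen in the basement membrane of all vessels. Some collagens are made by neurons, such as type XIX by hippocampal interneurons and the transmembrane type XXV.

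In L26 hippocampus 4 collagen genes rose and 3 fell, and 35 did not pass. The genes that rose were Col3a1, Col5a3, Col4a1 and Col4a2, and those that fell were Col11a1, Col19a1 and Col23a1. The largest rise was that of Col3a1, the chain of type III collagen (2.02-fold), and the largest fall that of Col11a1, a chain of the fibril-nucleating type XI collagen (1.83-fold). A gene was taken as passed at an adjusted p under 0.05 with limma and Benjamini-Hochberg adjustment over all 18193 genes, of which 5.19% passed, 2.63% higher and 2.57% lower. With arrays centred on their medians the split over all genes was 382 higher and 690 lower, against 478 and 467, while the collagen genes then split into 3 higher and 3 lower. Without L26 replicate 2 the collagen genes past the threshold were 2 higher (Col3a1 and Col4a1) and 2 lower (Col11a1 and Col19a1), and without L26 replicate 3 also 2 higher and 2 lower, with Col23a1 in place of Col19a1. At an unadjusted p under 0.05, 10 collagen genes were higher and 3 lower in L26, against 11.3% higher and 9.03% lower over all genes. The median difference (L26 minus wild type, log2) was 0.09 over the collagen genes and 0.01 over all genes, and 30 of the 42 had a higher mean in L26, against 53.1% of all genes. All 3 L26 values lay above all 3 wild type values for 11 collagen genes and below them for 3. Such separation was found for 24.1% of all genes, 13% with L26 above and 11% below.

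**Figure D1:**
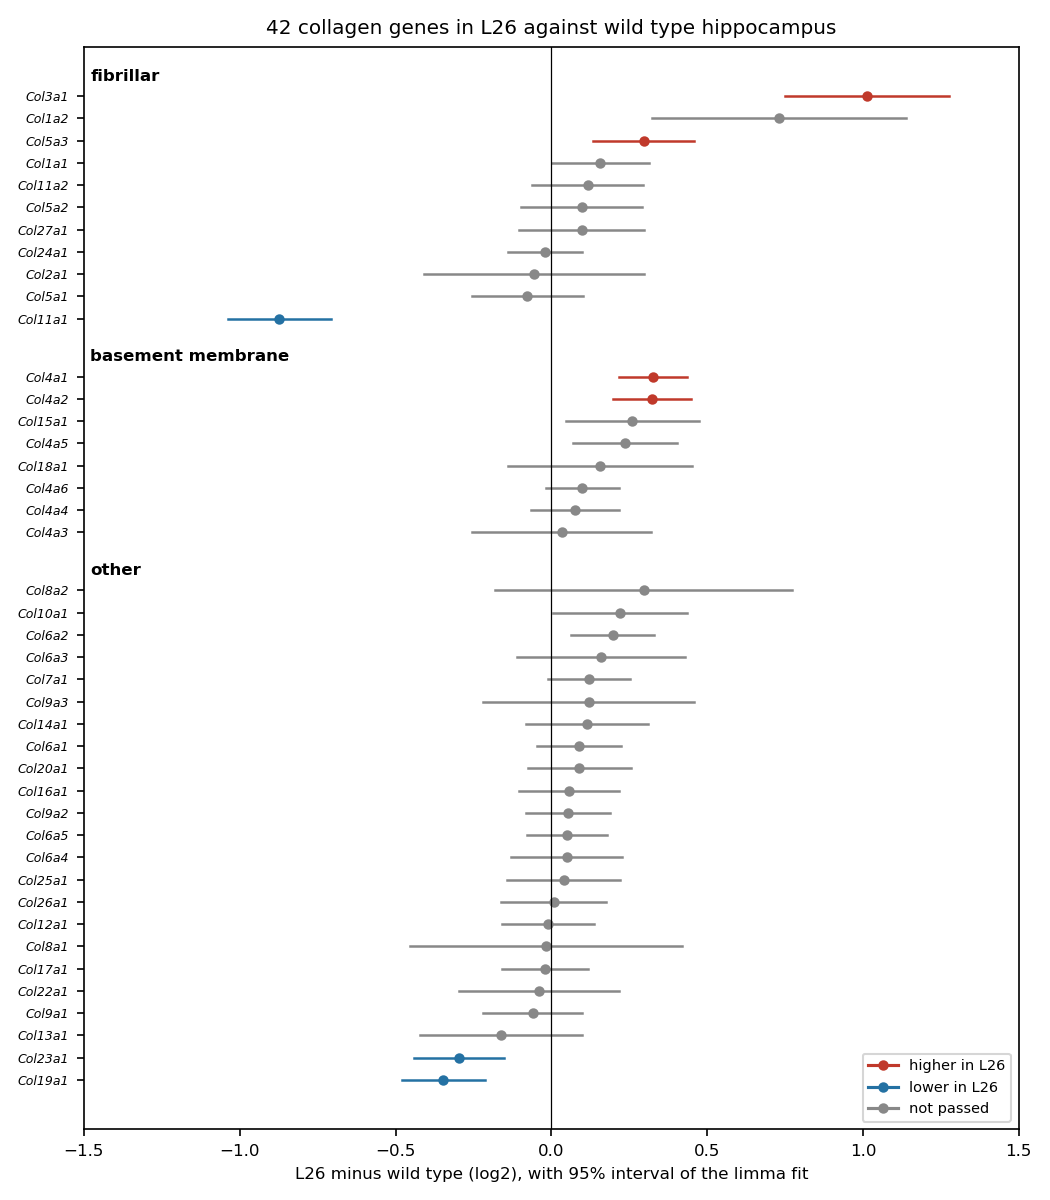
Difference of each of the 42 collagen genes (L26 minus wild type, log2; points) with the 95% interval of the limma fit (lines), by class, 3 arrays per group; colours mark genes past an adjusted p of 0.05. Col3a1 and Col11a1 lie farthest from 0, at 1.01 and -0.87, and all 8 basement membrane genes lie above 0.

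To show the regions upstream of genes past the threshold, the 250 bases before the RefSeq start (GRCm38.p6) are printed for Col3a1, Col11a1 and Col19a1, which had the largest differences among the genes past it that are fibrillar and rose, are fibrillar and fell, or are of other types. They were picked by these values. The capitals mark GTCA or its reverse complement TGAC, the core of the downstream regulatory element that DREAM is known to bind. Bases after the start were not searched, so elements that lie there are not covered.
Col3a1, chr1:45311288-45311537, plus strand: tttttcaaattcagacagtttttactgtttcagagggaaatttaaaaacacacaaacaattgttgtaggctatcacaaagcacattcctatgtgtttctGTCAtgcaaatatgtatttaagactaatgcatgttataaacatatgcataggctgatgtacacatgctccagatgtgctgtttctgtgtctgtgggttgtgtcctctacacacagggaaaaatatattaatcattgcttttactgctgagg
Col11a1, chr3:114030290-114030539, plus strand: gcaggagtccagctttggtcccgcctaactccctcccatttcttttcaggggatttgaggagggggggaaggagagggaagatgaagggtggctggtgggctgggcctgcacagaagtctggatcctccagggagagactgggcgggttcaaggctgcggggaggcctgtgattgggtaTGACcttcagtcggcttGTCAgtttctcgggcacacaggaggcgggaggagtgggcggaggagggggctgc
Col19a1, chr1:24587438-24587687, minus strand: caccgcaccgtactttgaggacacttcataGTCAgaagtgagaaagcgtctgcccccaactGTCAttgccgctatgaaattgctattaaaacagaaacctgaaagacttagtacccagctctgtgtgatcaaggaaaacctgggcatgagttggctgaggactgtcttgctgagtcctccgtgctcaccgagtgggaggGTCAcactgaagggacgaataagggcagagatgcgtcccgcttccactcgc

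These windows differ in base composition, with a GC content of 35.2% for Col3a1, 62.4% for Col11a1 and 52% for Col19a1. The GTCA core occurs once or more, on either strand, in 26 of 36 windows of the 33 measured collagen genes that have one (72.2%), in 6 of the 7 windows of genes that rose or fell, and in 80.2% of all 32851 windows of this length. The tetramer is therefore common in windows of this size, and its presence is only a description. GGGCGG, the GC box, occurs in 58.3% of the collagen windows and 32.7% of all windows, CCAAT in 36.1% and 33.8%, and TATAAA in 13.9% and 12.4%. Both strands were searched for each motif, and none of the 4 motifs contains another.

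The arrays correlated at 0.9971 to 0.9979 within a group and 0.9944 to 0.9958 between groups, with medians of 7.27 to 7.32 (log2). Both probe sets of Kcnip3, the gene from which the transgene derives, were lower on every L26 array. 1449129_a_at fell by 0.32 (SE 0.07, limma adjusted p = 0.0394 over probe sets), from 9.52 ± 0.12 to 9.20 ± 0.05 (SD, n = 3), and 1418544_at had -0.17 (SE 0.07, adjusted p = 0.208). Whether these probe sets cover the transgene is not known here, so they do not check the labels. The 14 hippocampal neuron markers measured had a median signal of 12.13, and 0 of them passed with limma (4 higher and 2 lower at an unadjusted p under 0.05, against 11.3% and 9.03% of all genes). Collagen probe sets were mostly dim: 33 of the 42 lay under the median signal of all genes (8.22) and 10 under the lower quartile (6.50), a range in which background compresses fold differences. The values of different probe sets do not rank transcripts by abundance.

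Among the fibrillar genes, Col3a1 (probe set 1427883_a_at) stood at 6.71, 6.83 and 6.89 in wild type replicates 1 to 3 and at 7.53, 8.01 and 7.93 in the L26 replicates (log2). The groups did not overlap, and the lowest L26 value was that of replicate 1. The means were 6.81 ± 0.09 and 7.82 ± 0.26 (SD, n = 3), a difference of 1.01 (SE 0.12, limma adjusted p = 0.00219). The dimmer of its 2 probe sets, 1427884_at, was near the floor of the arrays, at 4.69 to 4.90 over all 6, and differed by 0.01 (SE 0.07). With the mean of both probe sets the difference was 0.51 (adjusted p = 0.0113).

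Col1a2 and Col1a1 encode the chains of type I collagen, the main fibril of meninges and adventitia. Col1a2 was measured at 8.18, 7.94 and 8.45 in wild type and at 8.50, 9.06 and 9.20 in L26 (log2). Its L26 values all lay above the wild type values, but L26 replicate 1 exceeded wild type replicate 3 by a small margin only. The difference of 0.73 (SE 0.18) was the second largest rise in mean among the collagen genes and missed the threshold (limma adjusted p = 0.0537, 95% interval 0.32 to 1.14). Without L26 replicate 1 it was 0.94 (adjusted p = 0.015). Its second probe set, 1423110_at, had the same replicate apart, at 6.04 against 6.92 and 6.80 in the other L26 arrays, and 5.97 to 6.16 in wild type. Col1a1 did not pass on the probe set that represents it (0.16, SE 0.07, adjusted p = 0.243), whereas its other probe set, 1423669_at, rose by 0.31 (SE 0.06, adjusted p = 0.0151 over probe sets). With the mean of both probe sets Col1a1 passed, at 0.235 (limma adjusted p = 0.0392).

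Col5a3 encodes a chain of type V collagen, a minor component that nucleates and limits fibrils. It was measured at 6.28, 6.55 and 6.40 in wild type and 6.69, 6.74 and 6.69 in L26 (log2), with no overlap. Its rise of 0.30 (SE 0.07) passed narrowly (limma adjusted p = 0.0491). Of the 6 fits that each omit an array, only the one without wild type replicate 2 kept the call (the others had adjusted p = 0.103 to 0.149), and it was lost with arrays centred on their medians (0.0613), with quantile normalization repeated (0.057) and with the mean of both probe sets (0.12, adjusted p = 0.179). The other Col5a3 probe set had -0.06. The partner chains Col5a1 (-0.08, SE 0.08) and Col5a2 (0.10, SE 0.09) did not pass, with adjusted p = 0.65 and 0.596. Col5a2 is the direct neighbour of Col3a1 on chromosome 1, and its 95% interval of -0.10 to 0.29 lies below that of Col3a1 (0.75 to 1.28).

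Col11a1 went the other way. Its wild type values were 7.43, 7.34 and 7.62 and its L26 values 6.58, 6.62 and 6.57 (log2). The L26 arrays were nearly identical and lay far below every wild type array. The difference was -0.87 (SE 0.07, limma adjusted p = 0.00037), and its second probe set, 1418599_at, also fell, by 0.44 (SE 0.06, adjusted p = 0.00266 over probe sets). Col11a2, another chain of type XI, did not pass (0.12, SE 0.08). The remaining fibrillar genes Col2a1, Col24a1 and Col27a1 had differences of -0.06, -0.02 and 0.10 and did not pass. The Col24a1 probe set, at 4.58 to 4.69, was the dimmest of the 42. In all, 2 of 11 fibrillar genes rose, 1 fell and 8 did not pass, with a median of 0.10. At an unadjusted p under 0.05, 4 were higher and 1 lower (limma). Over all genes 2.63% were higher and 2.57% lower past the threshold, and 11.3% and 9.03% at an unadjusted p under 0.05.

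**Figure D2:**
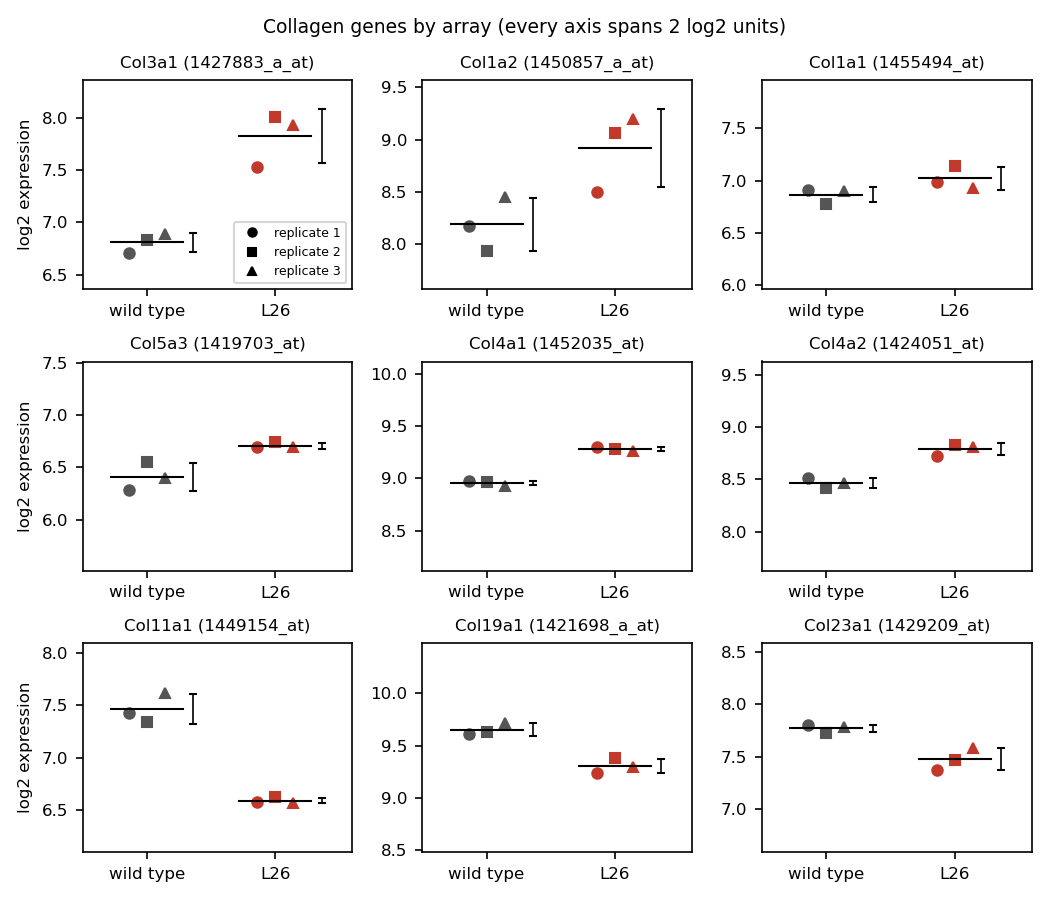
Expression (log2) of 9 collagen genes on each array, grey for wild type and red for L26, with the group mean (line) and SD (bar, n = 3); marker shapes give the replicate number, and every axis spans 2 log2 units. The genes are those past the threshold, with Col1a2 and Col1a1 added, and so were mostly picked by these values. The groups are apart in all 9 panels, against 33.3% of all collagen genes and 24.1% of all genes. In Col3a1 and Col1a2 the L26 replicate 1 (circle) is the lowest of its group.

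Among the basement membrane genes, Col4a1 and Col4a2 rose by almost the same amount. Their products form the trimer found in the basement membrane of all brain vessels, and mutations in either gene cause disease of small cerebral vessels. Col4a1 was measured at 8.97, 8.96 and 8.93 in wild type and 9.30, 9.28 and 9.26 in L26 (log2). The spread within each group was small (SD 0.02 in both, n = 3), and the difference was 0.33 (SE 0.05, limma adjusted p = 0.00708). Col4a2 had 8.51, 8.42 and 8.46 in wild type against 8.72, 8.83 and 8.81 in L26, a difference of 0.32 (SE 0.06, adjusted p = 0.0126). Neither gene's groups overlapped. Without L26 replicate 2 or 3 the adjusted p of Col4a2 was 0.0596 or 0.0586, and the Col4a1 call held without any single array. For its second probe set Col4a1 had 0.28 (adjusted p = 0.0661 when all probe sets were fitted).

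Col4a1 and Col4a2 lie head to head on chromosome 8 and are transcribed apart from a shared promoter. In RefSeq (GRCm38.p6) their annotated starts are at 11312826 on the minus strand and 11312805 on the plus strand, so that 22 bases belong to both transcripts. They are in capitals in the 30 bases around both starts (chr8:11312801-11312830), given on each gene's strand because this is the only pair of neighbours of which both rose.
Col4a2, plus strand: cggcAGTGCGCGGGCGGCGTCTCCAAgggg
Col4a1, minus strand: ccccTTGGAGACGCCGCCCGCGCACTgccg

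The type IV chains of restricted tissues come in like pairs, Col4a3 beside Col4a4 and Col4a5 beside Col4a6. Col4a5 had 6.39, 6.59 and 6.62 in wild type and 6.86, 6.74 and 6.71 in L26 (log2), which did not overlap, and a difference of 0.24 (SE 0.07, limma adjusted p = 0.109) that did not pass. With the mean of its 2 probe sets it was 0.34 (adjusted p = 0.0272). Col4a6 had 0.10 (SE 0.05), Col4a3 0.03 (SE 0.13) and Col4a4 0.08 (SE 0.06), none of which passed. Col15a1 and Col18a1 encode collagens of the basement membrane zone, the latter the source of endostatin, an inhibitor of vessel growth. Col15a1 had 0.26 (SE 0.09, adjusted p = 0.162) with no overlap between the groups, and Col18a1 0.16 (SE 0.13) with overlap, measured by a probe set that may also detect related transcripts. The other Col18a1 probe set, 1426955_at, had 0.17 (SE 0.06) without overlap and did not pass (limma adjusted p = 0.149 over probe sets). Of the 8 genes 2 rose, 0 fell and 6 did not pass, with a median of 0.20. At an unadjusted p under 0.05, 4 of the 8 were higher and 0 lower (limma). The shares of all genes were 2.63% higher and 2.57% lower past the threshold, and 11.3% and 9.03% at that unadjusted p.

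Among the 23 other genes 0 rose, 2 fell and 21 did not pass, with a median of 0.05 (limma; 2 higher and 2 lower at an unadjusted p under 0.05, against 11.3% and 9.03% of all genes). Col19a1, the gene of the interneuron collagen named above, is grouped with the fibril-associated types. It was measured at 9.61, 9.63 and 9.72 in wild type and 9.24, 9.38 and 9.30 in L26 (log2), lower on every L26 array. The fall of 0.35 (SE 0.06, limma adjusted p = 0.0124) had an adjusted p of 0.0561 without L26 replicate 3, and with the mean of its 3 probe sets the difference was -0.19 (adjusted p = 0.123). Its probe set 1456953_at had -0.32 (adjusted p = 0.0765 in the fit of all probe sets), while the dimmest, 1430676_at, had 0.09. Col9a1, the gene beside Col19a1, had -0.06 (SE 0.07) and did not pass.

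Col23a1, which encodes a transmembrane collagen, had 7.80, 7.73 and 7.78 in wild type and 7.37, 7.47 and 7.58 in L26 (log2). All L26 values lay below, by 0.30 on average (SE 0.06, limma adjusted p = 0.0325). The call held without L26 replicate 3 (adjusted p = 0.0372) and not without any of the other 5 arrays (0.0653 to 0.106). Of its other probe sets, 1429210_at fell by 0.44 (SE 0.06, adjusted p = 0.00533 over probe sets), and 1440911_at had -0.19 (adjusted p = 0.214). The other transmembrane genes did not pass. Col25a1, whose product is shed by neurons and binds amyloid, had 9.81, 9.58 and 9.60 against 9.79, 9.74 and 9.58, a difference of 0.04 (SE 0.08). The dimmer Col25a1 probe set, 1421427_at, had 0.19 (SE 0.06) without overlap and did not pass (limma adjusted p = 0.109 over probe sets). Col13a1 had -0.16 (SE 0.12) and Col17a1 -0.02 (SE 0.06).

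All 6 genes of the beaded filament group had a higher mean in L26. With limma 0 of them passed, with 1 higher and 0 lower at an unadjusted p under 0.05. Over all genes, 53.1% had a higher mean in L26, and 11.3% were higher and 9.03% lower at an unadjusted p under 0.05. Type VI collagen forms filaments between cells and fibrils. Its gene Col6a2 was at 8.48, 8.54 and 8.47 in wild type and 8.73, 8.60 and 8.75 in L26 (log2), above on every array, with a difference of 0.20 (SE 0.06, adjusted p = 0.0943). The neighbouring Col6a1 had 0.09 (SE 0.06), and Col6a3 had 0.16 (SE 0.12). Col6a4, Col6a5 and Col26a1 had 0.05, 0.05 and 0.01, and Col26a1 turned to -0.02 with arrays centred on their medians.

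Type VIII collagen, a short-chain network of the cornea and of vessel walls, varied within the groups. Col8a1 was at 7.68, 8.13 and 7.72 in wild type and 7.97, 7.36 and 8.15 in L26 (log2). Col8a2 was at 6.24, 6.25 and 6.50 in wild type and 6.60, 6.13 and 7.15 in L26. In both genes L26 replicate 2 was the lowest of the 6 arrays and L26 replicate 3 the highest, and the groups overlapped. The mean of 16 choroid plexus and ependyma markers had the same array highest, at 9.39 in L26 replicate 3, and was 8.56 in L26 replicate 2 and 8.44 in wild type replicate 1. The part of these markers in the type VIII values was not tested. Col10a1 of growth cartilage and Col7a1 of the skin's anchoring fibrils had 0.22 (SE 0.10) and 0.12 (SE 0.06) and did not pass. Besides Col19a1, the 8 genes of collagens that decorate fibrils (Col9a1, Col9a2, Col9a3, Col12a1, Col14a1, Col16a1, Col20a1 and Col22a1) ranged from -0.06 to 0.12.

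Of the 35 collagen genes that did not pass, 33 had a 95% interval within -0.5 to 0.5 on the log2 scale. The other two were Col1a2 and Col8a2, whose intervals reached above 0.5.

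Probe sets of a gene often differed. Over all 82 collagen probe sets 4 rose and 5 fell at an adjusted p under 0.05 over 45037 probe sets, of which 3.92% passed and 1.98% were higher. The 4 that rose were of Col3a1, Col4a1, Col4a2 and Col1a1, and the 5 that fell were 2 each of Col11a1 and Col23a1 and 1 of Col19a1. At this level Col5a3 had an adjusted p of 0.0597. Of the 27 genes with more than 1 probe set, the widest gap was that of Col3a1, between 1.01 and 0.01.

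**Figure D3:**
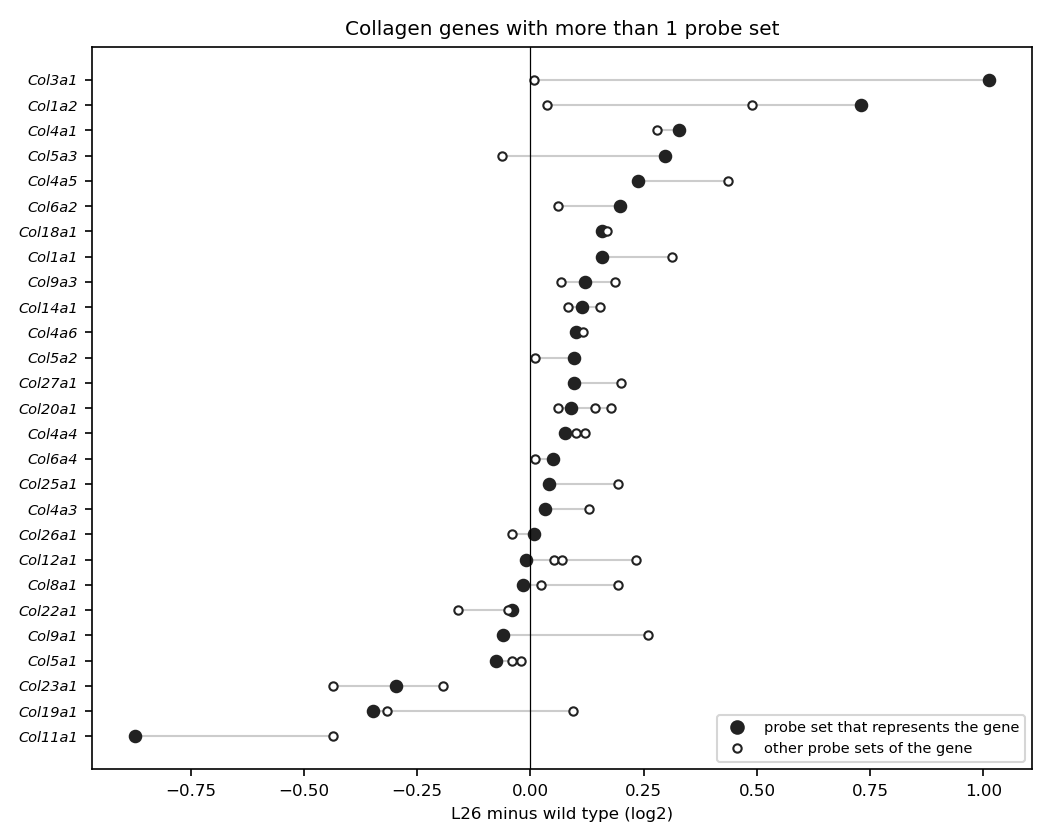
Difference (L26 minus wild type, log2) of every probe set of the 27 collagen genes with more than 1, with the probe set that represents the gene filled and the others open; lines join probe sets of a gene. Both Col11a1 probe sets lie well below 0, at -0.87 and -0.44, while those of Col3a1 lie at 1.01 and 0.01.

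The counts of the partner lists that follow stand against the shares over all genes, 2.63% higher and 2.57% lower past the threshold, and 11.3% higher and 9.03% lower at an unadjusted p under 0.05. Of 28 measured enzymes and chaperones that make and crosslink collagen, 0 rose and 0 fell (limma; 8 higher and 1 lower at an unadjusted p under 0.05), with a median of 0.12. The smallest p was that of Loxl1, a lysyl oxidase that crosslinks collagen and elastin, at 0.30 (SE 0.10, adjusted p = 0.128). Next was Fkbp14, a collagen-binding peptidyl-prolyl isomerase, at 0.19 (SE 0.07, adjusted p = 0.144). Among 21 measured proteins that bind fibrils 0 passed (limma; 4 higher and 0 lower at an unadjusted p under 0.05, beside the 11.3% and 9.03% of all genes), and the smallest p were those of the fibrillin gene Fbn2 (0.25, SE 0.07, adjusted p = 0.0815) and of Vwa1, a matrix protein that binds perlecan (0.17, SE 0.06, adjusted p = 0.133). The median difference of this list was 0.08.

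Of 20 partners of collagen in the basement membrane, 1 rose, 0 fell and 19 did not pass, with a median of 0.06 (limma; 6 higher and 3 lower at an unadjusted p under 0.05). The share past the threshold, 5%, is near the 5.19% of all genes, and is no result about the list. The gene that rose was Nid1, whose product nidogen joins laminin to type IV collagen. Nid1 was measured at 6.89, 6.58 and 7.01 in wild type and 7.17, 7.61 and 7.46 in L26 (log2), without overlap, a difference of 0.59 (SE 0.13, limma adjusted p = 0.0373). The call held without wild type replicate 3 or L26 replicate 1, and without any of the other 4 arrays the adjusted p was 0.0647 to 0.133. With the mean of its probe sets the difference was 0.28 (adjusted p = 0.0154).

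Of 20 measured genes of collagen receptors and other matrix receptors 3 rose, 0 fell and 17 did not pass, with a median of 0.16. At an unadjusted p under 0.05 in the limma fit, 10 were higher and 1 lower. The list includes chains of laminin and vitronectin receptors. Of these, Itga6 (0.18), Itgb4 (0.21) and Itgb5 (0.16) are among the 10 higher, and Itgav (-0.16) is the 1 lower. The share past the threshold was 15%, beside 5.19% of all genes. Adgrg1 encodes GPR56, an adhesion receptor for which type III collagen is a known ligand in the developing brain. It was at 8.59, 8.45 and 8.32 in wild type and 8.87, 8.86 and 8.97 in L26 (log2), above on every array, by 0.45 (SE 0.07, limma adjusted p = 0.0113). Its probe set may detect related transcripts as well, and with such probe sets removed the difference was 0.30 (adjusted p = 0.118). Without L26 replicate 3 its adjusted p was 0.0562. Ddr1, a receptor tyrosine kinase that collagen activates, rose by 0.30 (SE 0.05, adjusted p = 0.0138) from 11.22 ± 0.02 to 11.53 ± 0.06 (SD, n = 3). The Ddr1 probe set may also detect related transcripts, and with such probe sets removed the difference was 0.29 (limma adjusted p = 0.0195). Antxr2, which binds type IV collagen and laminin, rose by 0.40 (SE 0.07, adjusted p = 0.0106) from 5.66 ± 0.04 to 6.05 ± 0.11 (SD, n = 3), a signal under the lower quartile. Without L26 replicate 2 the adjusted p was 0.0641 for Ddr1 and 0.0509 for Antxr2, and the list then had 1 gene past the threshold.

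Among 19 collagenases, related proteases and their inhibitors 3 rose, 0 fell and 16 did not pass, with a median of 0.08 (limma; 6 higher and 0 lower at an unadjusted p under 0.05). The share past the threshold was 15.8%, beside 5.19% of all genes. Mmp14, the membrane-bound metalloproteinase that cuts fibrillar collagen and activates gelatinase A, was at 7.66, 7.91 and 7.86 in wild type and 8.50, 8.40 and 8.39 in L26 (log2). Every L26 value was higher, by 0.62 on average (SE 0.07, limma adjusted p = 0.00257), and the call held when any single array was left out. With the mean of its probe sets it was 0.38 (adjusted p = 0.0141). Timp4, an inhibitor of such enzymes, rose by 0.39 (SE 0.07, adjusted p = 0.0111), and Mmp17, another membrane-type metalloproteinase, by 0.26 (SE 0.05, adjusted p = 0.0239). Without L26 replicate 2, Timp4 had an adjusted p of 0.0505, and Mmp17 was lost without any array except L26 replicate 1, so that this list had 1 gene past the threshold without L26 replicate 2.

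Transforming growth factor beta is a main inducer of fibrillar collagen genes. Of 17 of its ligands, receptors, mediators and targets 0 rose, 1 fell and 16 did not pass (limma; 2 higher and 1 lower at an unadjusted p under 0.05), with a median of 0.05. The share past the threshold, 5.88%, is near the 5.19% of all genes. The gene that fell was Ccn2, which encodes a matrix protein often induced with collagen, from 9.58 ± 0.15 to 8.89 ± 0.05 (SD, n = 3), by 0.69 (SE 0.08, adjusted p = 0.00199). Ccn2 thus moved opposite to Col3a1, and the part of this growth factor in either change was not tested.

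Markers of the cells that make collagen also moved in these bulk samples, where more cells of a type and more RNA per cell cannot be told apart. These lists hold no collagen gene but share some genes with the partner lists. Cspg4 is counted both as a pericyte marker and in the receptor list. Dcn, Lum, Ogn and Fmod are counted both as fibroblast markers and among the proteins that bind fibrils. The counts stand beside 2.63% of all genes higher and 2.57% lower past the threshold (11.3% and 9.03% at an unadjusted p under 0.05). Of 16 brain endothelial markers 6 rose and 0 fell (limma; 8 and 0 at an unadjusted p under 0.05), with list means of 8.14 to 8.20 in wild type and 8.38 to 8.45 in L26 (log2). Of 13 pericyte and smooth muscle markers 4 rose and 0 fell (limma; 8 and 0 at an unadjusted p under 0.05), with means of 7.95 to 8.08 and 8.26 to 8.31. Neither list's means overlapped between the groups. Examples are Cldn5 of endothelial tight junctions (0.95, SE 0.08) and Pdgfrb, the pericyte receptor (0.68, SE 0.08). The smooth muscle actin gene Acta2 rose by 0.42 (SE 0.07), measured by a probe set of the same less specific kind, and had -0.04 (adjusted p = 0.703) when those were removed.

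Of 18 markers of leptomeningeal and perivascular fibroblasts 1 rose, the transporter gene Slc6a13 (0.45, SE 0.08, limma adjusted p = 0.0138), and 0 fell (5 higher and 0 lower at an unadjusted p under 0.05). That share, 5.56%, is near the 5.19% of all genes, while 16 of the 18 had a higher mean in L26. Their means overlapped, at 8.63 to 8.97 in wild type and 8.88 to 9.13 in L26 (log2). The basement membrane collagens had means of 7.11 to 7.15 in wild type and 7.25 to 7.36 in L26. The fibrillar collagens had 7.05 to 7.15 and 7.18 to 7.29, and the other collagens 7.22 to 7.26 and 7.15 to 7.32. The fibrillar mean includes the largest rises, Col3a1 (1.01) and Col1a2 (0.73), and the largest fall, Col11a1 (-0.87). Of the 11 fibrillar genes 7 had a higher mean in L26, against 53.1% of all genes. The separation of the fibrillar means therefore does not stand for every gene of the class. Oligodendrocyte markers rose in 11 of 15, and choroid plexus and ependyma markers in 2 of 16 with 1 that fell, against 2.63% higher and 2.57% lower over all genes. The part of any of these cell types in the collagen differences was not tested.

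**Figure D4:**
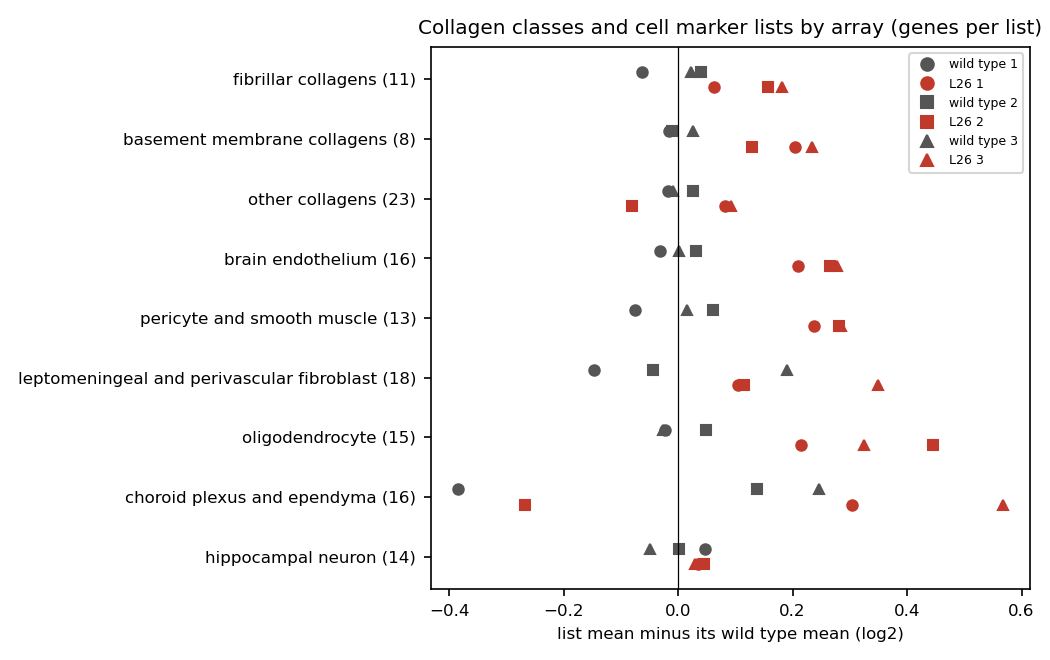
Mean log2 expression of each list on each array, relative to the list's wild type mean (number of genes in brackets), grey for wild type and red for L26, with shapes for replicates 1 to 3. The groups are apart for fibrillar and basement membrane collagens, endothelium, pericytes and oligodendrocytes, and overlap for other collagens, fibroblasts, choroid plexus and neurons. The fibrillar mean includes Col3a1 and Col1a2, the largest rises among the collagen genes, and does not stand for every fibrillar gene.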

How the data were processed

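Hippocampal RNA of 6 mice was measured on 6 one-colour expression arrays. The values are log2 signals that the authors deposited after RMA with the affy package, per the submitters' processing notes, which name no version. Such values carry no detection calls, and the number of arrays limits the precision. Over the probe sets analysed they ran from 4.20 to 15.02 and are rounded to 2 decimals. Of 45101 probe sets, 64 array controls were left out. Of the other 45037, 34945 had 1 gene symbol in the platform annotation, 932 several and 9160 none. Only those with 1 symbol were named.

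L26 was set against wild type by a linear model with moderated variances (limma 3.58.1, R 4.3.3), fitted to all 18193 genes, with Benjamini-Hochberg adjustment over all of them and a threshold of 0.05. The code was tested on simulated data. A second fit covered all probe sets. The 3 arrays of a group are described as biological replicates in the series design. Whether replicate numbers pair animals was checked by correlating deviations from the group means: the values were -0.04, -0.07 and 0.15, so the numbers were not used as pairs. With 3 arrays per group this check cannot exclude a pairing. Collagen classes and partner lists are from general knowledge. Members and lists were chosen with earlier results of these data known. Every collagen gene is named. From each other list, up to 4 genes past the threshold with the smallest p could be named, or 2 where none passed. Alternatives were a replicate block, each array left out, other scalings, filters, priors, array weights, probe set choices and a threshold of 0.1. Promoter windows are those of RefSeq on GRCm38.p6. The array data have no genome build of their own.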

Additional observations from a re-analysis of the deposited data

How the results depend on the processing

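Col3a1, Col4a1 and Col11a1 kept their direction and side of the threshold under every alternative run; Col4a2, Col19a1, Col5a3 and Col23a1 lost theirs under the settings named with them above. The cause of each shift was not tested. Col1a2 passed without L26 replicate 1, with quantile normalization repeated, with the dimmest probe sets left out (29 collagen genes tested, Col5a3 not among them) and with array weights. With the replicate number as a block, 635 genes passed instead of 945, 301 of them higher. In that fit Col5a3 and Col23a1 were lost and Col1a2 gained, leaving 1 other collagen lower, and 0 basement membrane partners rose. At a threshold of 0.1, 1734 genes passed (918 higher, 816 lower), among them 1 other collagen higher, 2 basement membrane partners higher and 1 lower, 1 fibril partner higher, 5 receptors and 5 collagenases or inhibitors. With an intensity trend and robust prior 701 genes were lower, and 1 basement membrane partner, as with centred arrays. Fibrillar collagens higher were 1 with centred arrays and 1 when adjusted over all probe sets. With the mean of all probe sets 1 other collagen was lower and 1 fibril partner higher.

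Leaving out each array in turn, 401 to 696 genes passed (180 to 358 higher, 221 to 376 lower; lowest without L26 replicate 2). Collagen genes higher ranged from 2 to 4, fibrillar ones from 1 to 2, basement membrane ones from 1 to 2, and other collagens lower were 1 each time. Basement membrane partners higher ranged from 0 to 2, fibril partners from 0 to 1, receptors from 1 to 4 and collagenases and inhibitors from 1 to 3. Differences that changed sign, in genes that did not pass, were Col12a1 (-0.063 to 0.042), Col17a1 (-0.077 to 0.013), Col22a1 (-0.128 to 0.087), Col24a1 (-0.048 to 0.007), Col25a1 (-0.003 to 0.113), Col26a1 (-0.037 to 0.083), Col2a1 (-0.182 to 0.143), Col4a3 (-0.125 to 0.145), Col6a4 (-0.03 to 0.13), Col8a1 (-0.178 to 0.217) and Col9a3 (-0.047 to 0.268). With the mean of probe sets Col12a1 had 0.087, Col26a1 -0.017, Col8a1 0.067 and Col9a1 0.1. Col26a1 had -0.012 with repeated quantile normalization, -0.023 with centred arrays and -0.003 with array weights, and Acta2 -0.043 without less specific probe sets. With 3 arrays per group, dim probe sets limit what can be detected.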
